A study of Mus musculus with 5 samples.

Results

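The microRNAs miR-155 and miR-146 were followed through activation of mouse helper T cells with 2 probes, 1org-155 and 1org-146, of 171 microRNA probes on each array (178 probes in all). The probes were taken because both microRNAs are known to be induced by NF-kB signals in lymphocytes. The rule that names them uses no measured value, although it was written with earlier results of these data known. The annotation of the array gives the gene of miR-155 for 1org-155 and lists no gene for 1org-146, which is identified here by the number in its name.

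All cells were CD4+25- T cells of the mouse, conventional helper T cells without the CD25-positive fraction in which regulatory T cells are found. Each of 5 arrays carried total RNA of activated cells in one dye and RNA of cells not activated, called naive in the title of the series, in the other. Activation was overnight on 1 array, with the activated RNA in Cy5. It was 3 days on 2 arrays and 10 days on 2 arrays, and each of these pairs had opposite dyes. The sources used here give no strain, age, stimulus, culture or number of mice, and do not state whether the arrays of a pair held separate extracts, so their spread may be technical.

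MicroRNAs are short RNAs that guide silencing complexes to messenger RNAs, which they pair with chiefly through the seed, bases 2 to 8. MiR-155 is cut from the transcript of Bic (Mir155hg), which antigen receptor signals switch on through NF-kB and AP-1. Among its targets are SHIP1 and SOCS1, inhibitors of receptor and cytokine signalling, so it is known for favouring lymphocyte responses. MiR-146a is also induced by NF-kB and represses TRAF6 and IRAK1, signalling proteins upstream of NF-kB, so it is known as a negative feedback on the same pathway.

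The mature sequences are shown because the seeds separate the targets of the members, and because miR-146 has a near-identical copy. They come from RefSeq (mouse build GRCm38.p6), 5′ to 3′, with the seed in capitals.
mmu-miR-155-5p: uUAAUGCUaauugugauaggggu
mmu-miR-146a-5p: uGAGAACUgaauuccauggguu
mmu-miR-146b-5p: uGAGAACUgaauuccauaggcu
The seeds of miR-155 and miR-146a have the same base at 3 of 7 positions. Of 1679 named mature mouse microRNAs in the table, only miR-155-5p has its seed, and only miR-146a-5p and miR-146b-5p have theirs. MiR-146a and miR-146b match at 20 of 22 bases, with the substitutions G18A and U21C counted from the 5′ end of miR-146a. Whether probe 1org-146 also bound miR-146b was not tested, and no other microRNA probe on the array carries the number of a microRNA with either seed.

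The precursor hairpins place these sequences, with the mature 5p strand in capitals. Mir155 lies on chromosome 16, at chr16:84714140-84714204 on the plus strand, inside the long noncoding gene Mir155hg. Mir146 (miR-146a) lies on chromosome 11, at chr11:43374397-43374461 on the minus strand.
Mir155: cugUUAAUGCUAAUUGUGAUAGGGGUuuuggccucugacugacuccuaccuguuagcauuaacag
Mir146: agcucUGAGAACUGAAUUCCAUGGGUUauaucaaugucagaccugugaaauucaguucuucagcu
Mature miR-155-5p spans bases 4 to 26 of its 65-base hairpin, and miR-146a-5p bases 6 to 27 of its own 65. The sources used here do not say which strand the probes were made against.

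Values are log2 ratios of activated over naive RNA. The deposited table gives neither log base nor numerator. It was read as log2 of Cy5 over Cy3, which is likely rather than stated, and the arrays with activated RNA in Cy3 were multiplied by -1. With Cy3 as numerator every direction given here turns. The arrays were not centred alike: the median of the 171 microRNA probes was -1.75 for the overnight array, 0.20 and 1.42 for the day 3 pair, and -0.51 and -0.38 for the day 10 pair. The values of the 2 members at each time are therefore given as deposited and after subtraction of the array's median (centred). Values of other probes are as deposited unless given as centred. The overnight array stood apart, with 23 of 171 probes above 0 against 55 to 134 on the other arrays. A ratio also does not separate a change in the RNA of each cell from a change in the make-up of the cells.

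MiR-155 was far higher in activated than in naive cells at day 3 and under 2-fold from naive at day 10. MiR-146, induced through the same pathway elsewhere, stayed within 2-fold of naive at day 3 and was over 2-fold below it at day 10 as deposited, but not after centring. The gap between the members, which no centring of arrays alters, was 18.1-fold at day 3, 2.94-fold at day 10 and 1.31-fold overnight.

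Probe 1org-155 read 0.05 overnight, 4.89 and 4.87 on the day 3 arrays, and 0.47 and 0.22 on the day 10 arrays. Both day 3 arrays lay far above the other 3, and the pairs did not overlap. The pair means were 4.88 ± 0.0095 at day 3, a 29.5-fold difference from naive RNA, and 0.35 ± 0.12 at day 10, a 1.27-fold difference (± is the distance of either array from the mean of the pair, n = 2 arrays).

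After centring, 1org-155 read 1.80 overnight, 4.69 and 3.45 on the day 3 arrays and 0.98 and 0.61 on the day 10 arrays. Day 3 remained the highest time, at a mean of 4.07 or 16.8-fold. The order of the other times turned: as deposited the overnight value was under both day 10 arrays, and centred it was above both. Their order is therefore not settled by these arrays.

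**Figure D1:**
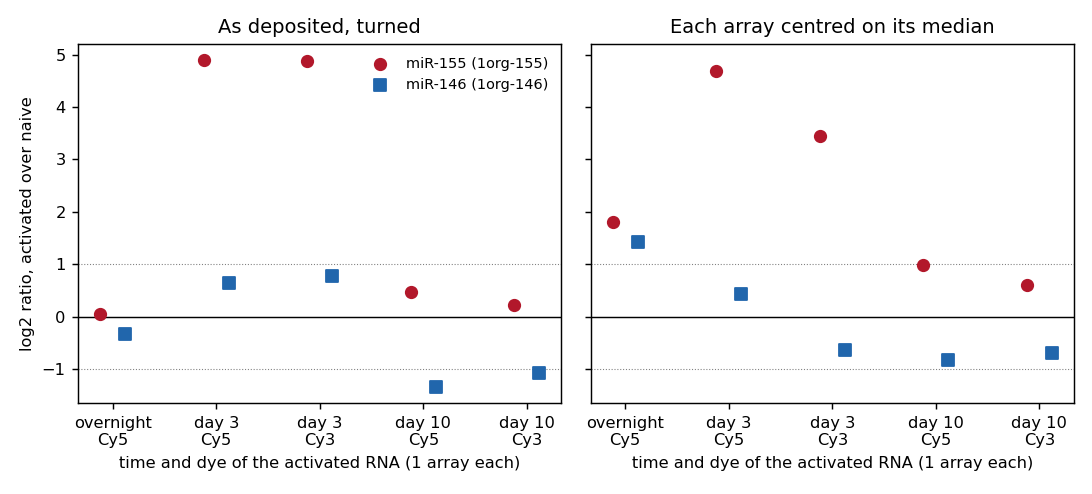
Log2 ratio of activated over naive RNA (vertical axis) for miR-155 (circles) and miR-146 (squares) on each of the 5 arrays, named by time and by the dye of the activated RNA. The left panel shows values as deposited after turning and the right panel values centred on each array's median; dotted lines mark 2-fold. MiR-155 stands between 3.45 and 4.89 on both day 3 arrays in either panel, while miR-146 on these arrays lies between -0.65 and 0.77.

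A size rule called a probe higher or lower when it lay 1 or more (2-fold) from 0 on average and kept its sign on every array of the time. By this rule 1 of the 2 members, miR-155, was higher at day 3 among 38.0% of all microRNA probes as deposited, and among 15.2% after centring. Its mean ranked 4th of 171. With limma over the 5 arrays (a term for each time and a dye term), miR-155 was higher at day 3 by 4.88 ± 0.45 (SE, adjusted p = 8.2e-20 over 171 probes), and this fit called 39.2% of probes higher. After centring it was 4.07 ± 0.38 (limma adjusted p = 3.5e-19, 18.1% of probes higher). This fit gave all probes the same SE, and its p-values cover the spread between arrays only.

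At day 10 miR-155 was under 2-fold from naive in either setting, at 0.35 as deposited and 0.80 centred. The limma fit over 5 arrays gave adjusted p = 0.54 and 0.15, which do not show that it had returned to the naive level. From day 3 to day 10 it fell by 4.53, a 23.2-fold difference, and after centring it fell by 3.28, or 9.68-fold. Only 1 of 171 probes had a larger difference toward lower values as deposited.

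Probe 1org-146 read -0.33 overnight, 0.64 and 0.77 on the day 3 arrays, and -1.34 and -1.07 on the day 10 arrays. Both day 3 arrays were above 0 and both day 10 arrays below it, with the overnight value between the pairs. The pair means were 0.70 ± 0.07 at day 3 (1.63-fold above naive) and -1.21 ± 0.14 at day 10 (2.31-fold below naive). Centring put it at 1.41 overnight, at 0.43 and -0.65 on the day 3 arrays, and at -0.83 and -0.69 on the day 10 arrays. The overnight array then held the highest value, the day 3 arrays lay on either side of 0, and the lower of them was close to the day 10 pair.

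MiR-146 counted as lower at day 10 as deposited, among 17.0% of all microRNA probes, and not after centring, where its mean was -0.76 and 4.09% of probes were lower. With limma over the 5 arrays it was lower by -1.21 ± 0.45 (SE, adjusted p = 0.045, with 11.7% of probes lower), a call that ended on centring (-0.76 ± 0.38, adjusted p = 0.17, with 2.92% of probes lower). Its day 3 value passed no rule, with adjusted p = 0.16 in the limma fit over 5 arrays as deposited and 0.92 after centring.

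From day 3 to day 10 the ratio of miR-146 fell by 1.91 as deposited, or 3.77-fold, beside a median difference of -1.22 over all probes. The size rule for this difference asks for at least 2-fold with no overlap between the pairs. As deposited both members met it, among 41.5% of all probes. After centring miR-155 met it, among 13.5% of probes, and miR-146 did not, at -0.66. With limma over the 5 arrays as deposited, miR-155 was lower at day 10 than at day 3 by -4.53 ± 0.63 (SE, adjusted p = 2.0e-09) and miR-146 by -1.91 ± 0.63 (adjusted p = 0.0087), among 43.9% of probes. After centring miR-155 was at -3.28 ± 0.54 (limma adjusted p = 1.6e-07) and miR-146 at -0.66 ± 0.54 (limma adjusted p = 0.37), and 7.6% of probes were lower.

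**Figure D2:**
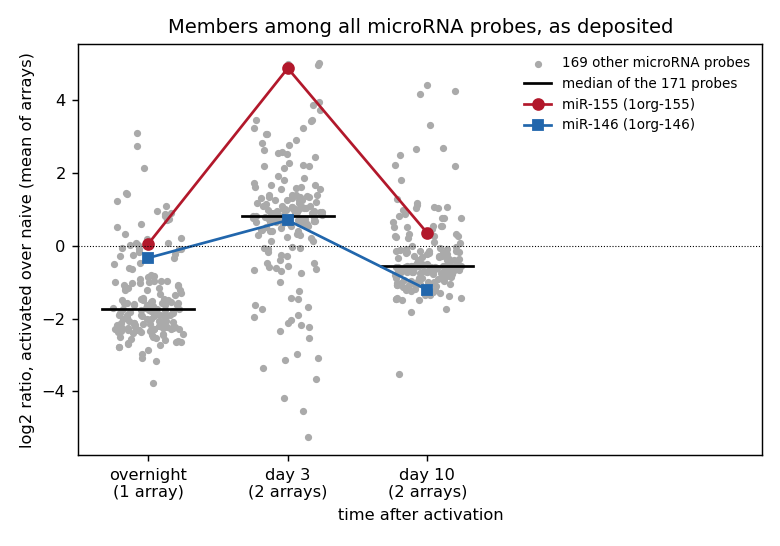
Log2 ratio of activated over naive RNA as deposited (vertical axis), averaged over the arrays of each time, for miR-155, miR-146 and the other microRNA probes (grey); the black bar is the median of all 171. MiR-155 is near the top of the cloud at day 3 (4.88), and miR-146 lies near the median at day 3 (0.70 beside 0.83) and below it at day 10 (-1.21 beside -0.56).

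On ranks, which centring also leaves alone, miR-155 was 21st from the highest of 171 probes overnight, 3rd and 4th on the day 3 arrays, and 41st and 44th on the day 10 arrays. MiR-146 was 32nd overnight and 67th and 115th at day 3, and at day 10 it had 17.0% and 19.3% of the probes below it. Overnight the members were thus 11 places apart and both in the upper part of the array. MiR-155 exceeded 107 of the 170 other probes on all 5 arrays, and no probe exceeded it on all 5. MiR-146 exceeded 2 other probes on all 5 arrays and was exceeded by 10.

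Within each array the log2 ratio of miR-155 was above that of miR-146, by 0.38 overnight, 4.26 and 4.10 on the day 3 arrays and 1.82 and 1.30 on the day 10 arrays. The day 3 pair did not overlap the day 10 pair, and both pairs were above the overnight value. The mean over the 3 times was 2.04 ± 1.94 (SD, n = 3 times). An exact 2-sided sign-flip permutation test over the times gave p = 0.25, the smallest that 3 times allow. These are differences between 2 changes and say nothing of which microRNA was the more abundant.

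**Figure D3:**
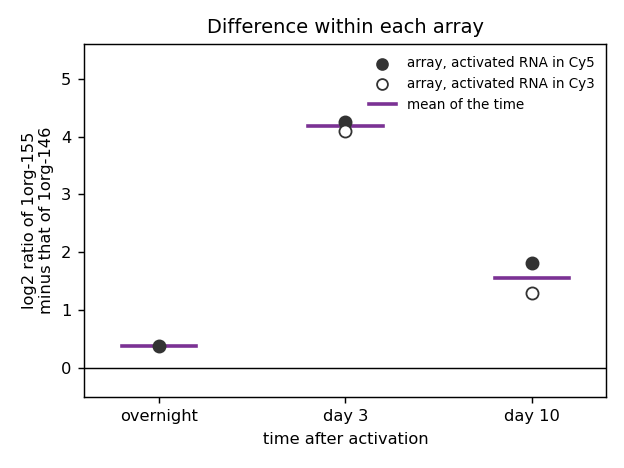
Log2 ratio of miR-155 minus that of miR-146 (vertical axis) on each array, by time after activation; filled and open circles are arrays with the activated RNA in Cy5 and Cy3, and bars are the means of each time. All 5 arrays lie above 0, from 0.38 overnight to 4.26 at day 3.

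Among arrays with the activated RNA in Cy5, which share any dye effect, miR-155 was 4.84 higher at day 3 than overnight and miR-146 0.97 higher, beside a median of 1.99 over all probes. After centring miR-155 was 2.89 higher, the 10th largest difference of 171, and miR-146 was lower by -0.98. As the overnight array had no dye swap, the part of each probe's value that does not turn with the dyes was taken from the other pairs. It was small for both: with it taken off, miR-155 was at -0.02 overnight and miR-146 at -0.23. Centred and without it, they were at 1.40 and 1.18. By size after centring alone, both members were at least 2-fold higher overnight, among 21.6% of probes, with no test. The limma fit over 5 arrays takes its overnight error from the day 3 and day 10 pairs, since 1 array has no spread of its own, and so does not test the overnight values.

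The dye pairs also show how well each probe repeated. At day 3 the arrays of the pair differed from their mean by 0.0095 for miR-155, the smallest of 171 probes, and by 0.07 for miR-146, beside a median of 0.55. At day 10 the distances were 0.12 and 0.14, beside a median of 0.20. The close match at day 3 holds for values as deposited: centred, the distances were 0.62 and 0.54, as the array medians of that pair differ.

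Over the 3 times as replicates, with each dye pair averaged, the mean log2 ratio was 1.76 ± 0.93 (SE, n = 3 times) for miR-155 and -0.28 ± 0.93 for miR-146. As deposited this fit gave all probes the same SE, which is not the spread of either member. The SD of the member's own 3 time values was 2.71 for miR-155 and 0.96 for miR-146. Neither passed limma's test against 0 (adjusted p = 0.77 and 0.89 over 171 probes). No probe passed it, with 3 higher and 8 lower at an unadjusted threshold of 0.05. The 5-array fit called 23 higher and 37 lower over the mean of the times, with miR-155 among the higher (1.74, adjusted p = 1.9e-06) and miR-146 in neither set (-0.25, adjusted p = 0.53).

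How many probes shared the time course of miR-155 depended on the centring. As deposited, 11 of 171 probes (6.43%) reached 2-fold above naive at day 3 while staying under 2-fold from it overnight and at day 10, miR-155 among them. The overnight limit shut out the 73.1% of all probes that were at least 2-fold lower on that array as deposited. How many of them were higher at day 3 was not counted. After centring 7 probes (4.09%) met these limits, without miR-155, whose overnight value was then above 2-fold. Of 7 probes above 0 on all 5 arrays as deposited, and 16 after centring, miR-155 was 1 in each case. The size rule called 17 of 171 probes (9.94%) lower at day 10 and neither higher nor lower at day 3, miR-146 among them, and after centring 2 probes (1.17%), without miR-146. By sign alone, 42 probes (24.6%) were above 0 on both day 3 arrays and below 0 on both day 10 arrays, as miR-146 was, and after centring 12 were, without miR-146.

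The 5 nearest courses to miR-155 were found by the root mean square difference in log2 ratio over the 3 times, which centring does not alter. The arrays share naive RNA as control, so likeness is a description only. MiR-31 (1org-31) was nearest at 0.62, with -0.998 overnight, 4.99 ± 0.69 at day 3 and 0.54 ± 0.08 at day 10. Probe 1org-132, without an annotated gene, came next at 0.86, with -0.24, 3.74 ± 0.35 and -0.56 ± 0.16. MiR-132 and miR-212, known as products of neighbouring genes induced by CREB, were both near: miR-212 (2org-212) followed at 0.95, with -1.08, 3.95 ± 0.37 and -0.40 ± 0.07.
MiR-23b (1org-23b) was at 1.00, with 0.52, 3.23 ± 0.10 and 0.21 ± 0.27. Probe 1org-298, annotated to several genes, was at 1.12, with -0.97, 3.46 ± 0.35 and -0.49 ± 0.02. All 5 probes were 2-fold or more higher at day 3 and under 2-fold from naive at day 10. Over the 5 arrays instead of the 3 times, the same 5 probes were nearest. The median difference of all probes from miR-155 was 2.69, and miR-146, at 2.58, was 64th of 170.

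The 5 nearest to miR-146 were closer to it, from 0.44 to 0.56 beside a median of 1.21, and included microRNAs known from other tissues. They were miR-202 (1org-202, 0.44), the muscle microRNA miR-206 (1org-206, 0.50), miR-151 (1org-151, 0.52), 1org-124a (0.54), numbered as the neuronal miR-124a, and 1org-292-s (0.56). MiR-151 read -1.17 overnight, 0.99 ± 0.05 at day 3 and -1.06 ± 0.13 at day 10. Both nearest probes split by dye at day 10, and miR-206 at day 3 too. MiR-202 read 0.76 and 0.32 on the day 3 arrays and 0.07 and -2.18 on the day 10 arrays. MiR-206 differed by dye more than by time: it read 1.95 and -0.29 on the day 3 arrays and 1.36 and -2.49 on the day 10 arrays. Over the 5 arrays 2 of the 5, miR-151 and 1org-292-s, stayed among the nearest.

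**Figure D4:**
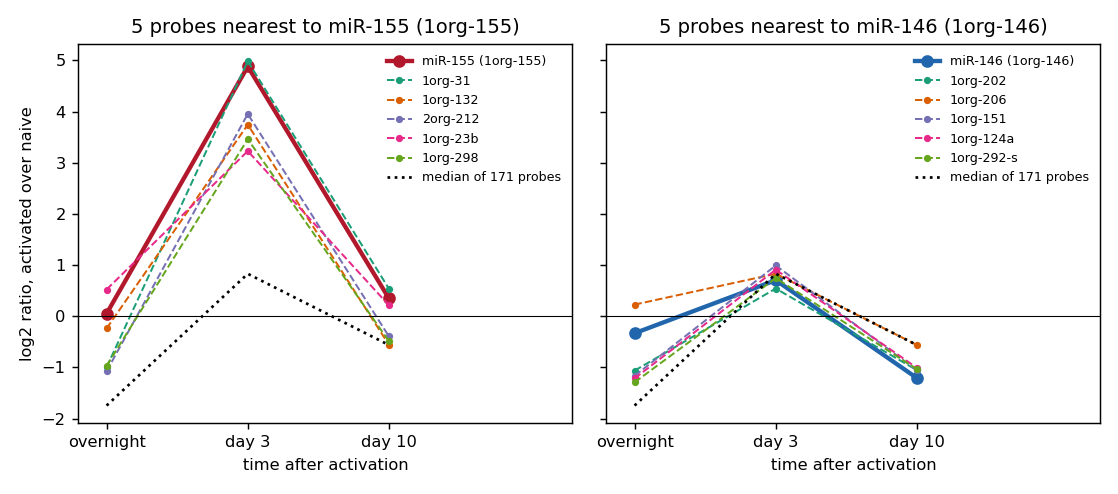
Log2 ratio of activated over naive RNA as deposited (vertical axis), averaged per time, for miR-155 (left) and miR-146 (right) with the 5 probes nearest to each and the median of the 171 probes (dotted). The 5 beside miR-155 reach 3.23 to 4.99 at day 3, and the 5 beside miR-146 lie between 0.54 and 0.99 at day 3, near the median of 0.83.

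Other microRNAs linked to NF-kB in the literature were read from a list of 12 probes, the members included. At day 3, 9 of the 12 exceeded 2-fold and none was lower, around a median of 2.06 beside 0.83 over all probes, of which 38.0% were higher. The limma fit over 5 arrays called 9 higher and none lower, beside 39.2% higher over all probes. After centring 8 were higher and none lower, around 1.25 beside 0.02 and 15.2% of all probes higher. The 3 under 2-fold by the size rule as deposited were miR-146, 1org-9 (0.94 ± 0.88) and 1org-9* (0.63 ± 1.39), whose arrays disagreed widely. The values of miR-155 and miR-146 thus lay at opposite ends of the list, miR-155 being its highest probe and miR-146 its second lowest.

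At day 10, 5 of the 12 were higher and 2 lower, miR-146 and 1org-125b (-1.22 ± 0.02), around a median of 0.67 beside -0.56. Over all probes 9.94% were higher and 17.0% lower (14.6% and 4.09% centred), so the 2 lower are no more than the share of the whole array. The limma fit over 5 arrays called 3 higher and 2 lower, beside 12 higher and 20 lower of all 171 probes. After centring 6 of the list were higher and none lower by either rule, beside 24 higher and 5 lower of all probes by limma. MiR-21 (1org-21), known for favouring cell survival, was at 2.45 ± 0.37 at day 3 and 2.66 ± 0.10 at day 10. Probe 2org-222 was at 2.64 ± 0.16 and 2.68 ± 0.01, and 2org-221 at 2.19 ± 0.07 and 2.50 ± 0.02. Centred, miR-21 was at 1.64 at day 3 and 3.11 at day 10, 2org-222 at 1.83 and 3.13, and 2org-221 at 1.38 and 2.94. Each mean was higher at day 10 than at day 3, by 0.0455 to 0.305 as deposited and by 1.30 to 1.56 centred. As deposited the pairs overlapped for miR-21 and 2org-222 and not for 2org-221. The size of the difference between the days thus depends on the centring. These probes, unlike miR-155, were thus also above 2-fold at day 10. Overnight none was 2-fold higher and 7 were lower as deposited, beside 4.09% higher and 73.1% lower over all probes. After centring 5 were higher and none lower, beside 21.6% and 4.09%.

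**Figure D5:**
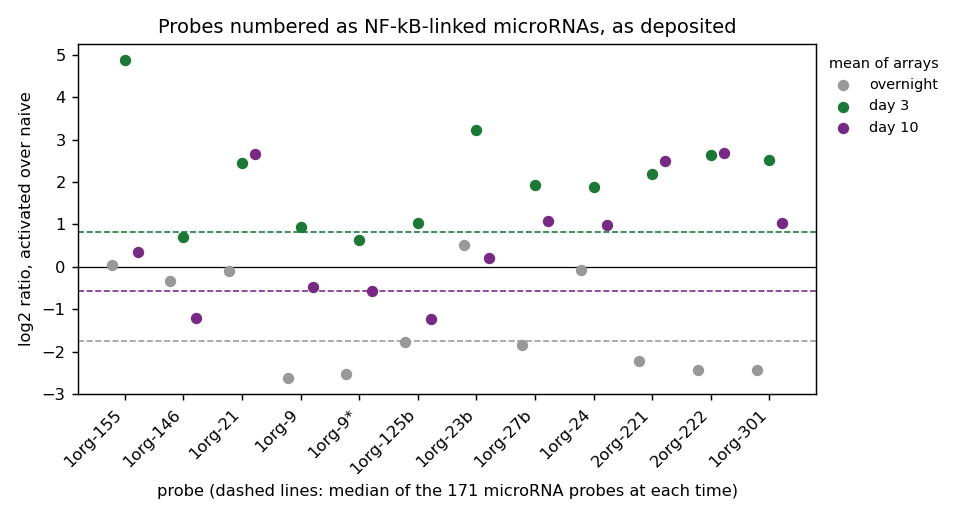
Log2 ratio of activated over naive RNA as deposited (vertical axis) for the 12 probes numbered as NF-kB-linked microRNAs, averaged over the arrays of each time; dashed lines are the medians of all 171 microRNA probes in the same colours. MiR-155 has the highest day 3 value (4.88), while miR-21, 2org-221 and 2org-222 have day 10 values of 2.50 to 2.68.

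A list of 15 probes for microRNAs of T cell activation, which also holds both members, gave 12 higher and none lower at day 3 (11 and none centred). Over all probes the shares at day 3 were 38.0% higher and 12.9% lower (15.2% and 19.9% centred). At day 10, 6 were higher and 3 lower (7 and 2 centred), beside 9.94% and 17.0% of all probes (14.6% and 4.09% centred). Overnight 1 was higher and 7 lower (7 and 1 centred), beside 4.09% and 73.1% of all probes (21.6% and 4.09% centred). Its median was 2.58 at day 3 and 0.54 at day 10, and the members stood at 4.88 and 0.70, then at 0.35 and -1.21. Of the 11 probes of the resting lymphocyte list, 10 were lower at day 3 (11 centred) and 4 at day 10 (2 centred), beside 12.9% and 17.0% of all probes (19.9% and 4.09% centred). Overnight 9 were lower (2 centred, with 1 higher), beside 73.1% of all probes (centred, 4.09% lower and 21.6% higher). The overnight count as deposited is thus near that of the whole array. At day 3, where miR-155 was at 4.88, the resting probes 1org-150 and 1org-181 were at -5.24 ± 0.61 and -4.53 ± 0.84, 1org-26a at -4.19 ± 0.25 and miR-26b (1org-26b) at -2.96 ± 0.06. Of the other miR-181 probes, 2org-181b was at -1.94 ± 0.21, and 2org-181c, the member not called lower as deposited, read -1.78 and 0.30.

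MiR-155 and miR-146 are known from other blood cells too, so markers of other cells were read beside them. The myeloid probe 2org-223 read -2.01 overnight, -1.36 and 0.88 on the day 3 arrays and -1.62 and -1.27 on the day 10 arrays. It was below 0 on the day 3 array with activated RNA in Cy5, where miR-155 was at 4.89, and above 0 on the other. After centring its day 3 mean was -1.05, lower by the size rule, among 19.9% of all probes. The erythroid miR-144 (1org-144) was at -2.23 overnight, 1.03 ± 0.50 at day 3 and -0.66 ± 0.72 at day 10. Centred, miR-144 was at 0.215 at day 3. Of 8 probes of other tissues 2 were 2-fold higher at day 3, 2 lower at day 10 and 7 lower overnight, beside 38.0%, 17.0% and 73.1% of all probes. After centring 1 of the 8 was higher overnight, beside 21.6% of all probes. The remaining counts were 0, beside 15.2% higher at day 3, 4.09% lower at day 10 and 4.09% lower overnight. Their medians were 0.95 at day 3 and -0.97 at day 10, beside 0.70 and -1.21 for miR-146. Within this list 1org-122a was at 1.06 ± 1.28 and 1org-124a at 0.91 ± 0.72 at day 3. The part of other cells in the values of the members was not tested.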

How the data were processed

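Per the labels, total RNA was hybridised to 5 arrays of 2 channels. The deposited table gives a log ratio per probe and array for 178 probes, with no value missing. For these deposited values, read as log2 ratios, the sources used here give no scanner, image analysis, normalization by the authors, log base or numerator. Scanner signals were not used here, so no probe could be checked against background, and the number of arrays limits the precision. Values were turned by -1 where Cy3 held the activated RNA. The turned arrays of a pair correlated across the 171 microRNA probes (r = 0.66 for day 3, r = 0.43 for day 10). The 7 probes for other small RNAs were left out.

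Fits were made with limma (version 3.58.1, R 4.3.3; lmFit then eBayes; 2-sided; Benjamini-Hochberg adjustment over 171 probes; threshold 0.05). They were also run on simulated data with the same effect at every time and no offset between arrays. Those settings differ from these arrays, so the run does not measure power or error here. The main one set the 3 times against 0, with dye pairs averaged, and leaves out the spread of the naive control. The alternative took 5 arrays with time and dye as terms. Within and between times the main rule was size. Other alternatives were centring, a common scale (median absolute deviation), removal of the dye part and leaving out each array.

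Named probes were the members, probes sharing a seed, the 5 nearest to each member, up to 4 of each list in written order, and miR-223. Further probes, among them 2org-221, 2org-222, 1org-9* and 1org-125b, were named after their values were seen. Lists (NF-kB-linked, T cell activation, resting lymphocyte, myeloid, erythroid, other tissues) match probes by number. The members and lists were chosen with earlier results of these data known. Sequences were matched by name to RefSeq, for 3 of 3 mature microRNAs and 2 of 2 hairpins sought.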

Additional observations from a re-analysis of the deposited data

Results flagged for a closer look

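The ratio of miR-155 differed between the times: it was 4.88 at day 3 and 0.35 at day 10, a difference of -4.53, in the limma fit over 5 arrays (adjusted p = 2.0e-09, and 1.6e-07 after centring). It was above 0 on 4 of 4 arrays of the pairs, and was 1 of 7 probes above 0 on all 5 arrays as deposited. The ratio of miR-146 was above 0 on both day 3 arrays and below 0 on both day 10 arrays, as for 24.6% of all probes. Its difference was -1.91 (limma adjusted p = 0.0087). The p-values of this fit treat the arrays of a dye pair as replicates, although they may hold the same extracts. The fit called 43.9% of all probes lower at day 10 than at day 3, and 7.6% after centring. After centring the difference of miR-146 was -0.66 (limma adjusted p = 0.37) and 1 day 3 array was below 0. No group had enough arrays to look for an outlying array.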

How the results depend on the processing

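Centring moved every value at a single time by construction. Centred, and then centred and brought to a common scale, miR-155 was at 1.80 and 2.31 overnight, 4.07 and 3.34 at day 3, 0.80 and 0.89 at day 10, and -3.28 and -2.45 for day 10 minus day 3. In the same settings miR-146 was at 1.41 and 1.81 overnight, -0.11 and -0.18 at day 3, -0.76 and -0.88 at day 10, and -0.66 and -0.70 for the difference. Its mean over the 3 times turned to 0.18 and 0.25. The common scale took the gap between the members at day 3 to 3.52. With the 5 arrays in place of the 3 times, miR-155 over all times passed at 1.74 (limma adjusted p = 1.9e-06), against adjusted p from 0.12 to 0.95 in the other settings; the cause was not tested. That fit also takes its error from within the dye pairs (SE 0.32 against 0.93 between times) and adds a dye term.

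Leaving out 1 array at a time, miR-155 ranged from 1.72 to 2.61 over all times, 4.87 to 4.89 at day 3, 0.22 to 0.47 at day 10 and -4.66 to -4.41 for the difference of days. MiR-146 ranged from -0.32 to -0.23, 0.64 to 0.77, -1.34 to -1.07 and -2.05 to -1.78. The gap ranged from 4.10 to 4.26 at day 3, 1.30 to 1.82 at day 10 and 1.95 to 2.87 over all times; the alternatives for this last mean were added after seeing the data. These values keep their direction, but a lone array of a pair holds its dye effect. The limma fit over 5 arrays has no residual without an array of a pair.

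Over all 171 probes, centring took the shares at least 2-fold higher and lower from 4.09% and 73.1% to 21.6% and 4.09% overnight, and the counts from 65 and 22 to 26 and 34 at day 3, and from 17 and 29 to 25 and 7 at day 10. Replicates could not be paired across times because the labels give no replicate numbers shared between times.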
